A study of Zea mays with 42 samples.

Results

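The embryo of the maize inbred line B73 was compared between 25 and 20 days after pollination (DAP), with 3 arrays of each age out of 42 arrays in the series, over all 17621 probe sets that are not hybridization controls. Untreated 25 DAP embryos were set against untreated 20 DAP embryos. Both groups share the B73 genotype and ordinary field care, and the labels call the 3 samples of a group biological replicates without saying how many kernels or ears went into each. The other arrays hold embryo at 10 and 15 DAP, endosperm at 10, 15, 20 and 25 DAP, and the non-seed tissues silk, ear, leaf, stem tip, stem and root. The series itself was made to contrast seed with non-seed tissues, and its publication used the embryo values to pick gene pairs for promoter cloning.

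In the cereal embryo, cell division gives way during seed filling to the storage of oil and globulin proteins in the scutellum, the single cotyledon of the grass embryo. Abscisic acid and the transcription factor Vp1 then drive maturation, when dehydrins and other late embryogenesis abundant (LEA) proteins, heat shock proteins and antioxidant enzymes accumulate before the seed dries. Earlier, transcription factors of the LEC1 type hold the embryo in its embryonic program.

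The authors gave each probe set a MAS5 signal, a linear intensity, so values of different probe sets are not set against each other here. The ages were compared with limma on the log2 scale, with every one of the 42 arrays in the model. To be called, a probe set needed both a fold of 2 or more (1 on the log2 scale) and a Benjamini-Hochberg adjusted p below 0.05. Errors of log2 folds are standard errors (SE) of that fit with 3 arrays per age. They draw on the spread within all tissues, not only on that of the embryo arrays. The median signal of an array was 480, 507 and 491 in 25 DAP embryos, against 474, 453 and 463 in 20 DAP embryos, so all 3 medians were higher at 25 DAP. Each embryo array correlated with its replicates at a mean r of 0.992 to 0.995 over log2 signals. On the control transcripts Gapdh and Cyph, the log2 ratio of the 3′ to the 5′ probe set was 1.08 to 1.15 and 0.27 to 0.32 in 25 DAP embryos, against 0.96 to 1.00 and 0.09 to 0.16 in 20 DAP embryos, and the part of this shift in the results was not tested. Markers that define embryo and endosperm followed the labels. The embryo globulin gene glb2 averaged 16984 in 25 DAP embryos and 12969 in 20 DAP embryos, against 195 and 219 in endosperm of the same ages, whereas the endosperm zein gene dzs18 averaged 31.9 in 25 DAP embryos and 201 in 20 DAP embryos, against 21237 and 22457 in endosperm.

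Over the 5 days, 290 probe sets were called higher and 177 lower in 25 DAP embryos, which is 1.65% and 1.0% of those tested. Beside these shares, the low counts of calls on most gene lists below are not read as results about those lists. A gene symbol, and not only a locus identifier, was at hand for 28 of the 290 and 22 of the 177, since only 1303 of the probe sets carry one, so most of the change lies in probe sets that are not named here. The median log2 fold was 1.26 among those called higher and -1.30 among those called lower, and a fold of 4 was passed by 26 and 23. Without the fold threshold, 1335 probe sets were higher and 893 lower at an adjusted p under 0.05. Of all probe sets, 52.9% had 3 arrays of one age free of overlap with those of the other, and this held for 289 of the 290 and 170 of the 177. Most called genes described below were picked by a rule that required it, so lack of overlap adds no evidence for them. The split between directions depended on the scaling. With arrays centred on their medians, 221 were called higher and 237 lower, so the share called higher was 48.3% in place of 62.1%, and centring moved the median fold of all probe sets by -0.09. Earlier steps held more calls, with 641 higher and 329 lower at 15 against 10 DAP and 509 and 259 at 20 against 15 DAP. Of the 290 called higher, 104 had a higher mean in the 25 DAP embryo than in every other tissue compared. Endosperm at 10 and 15 DAP was left out of that count. It was not made over all probe sets, and the 290 were already above 20 DAP by selection. No trait of the 290 is therefore read from it.

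**Figure D1:**
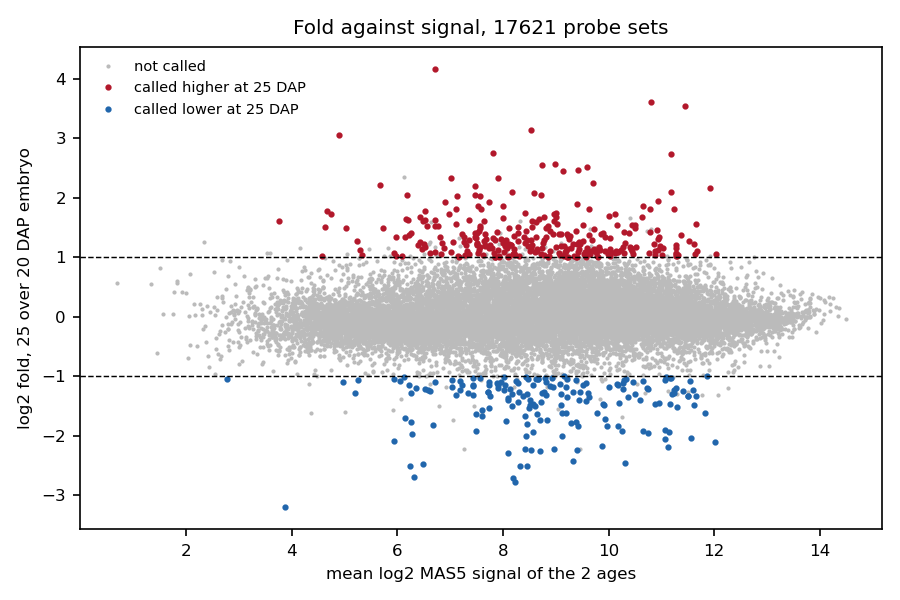
Log2 fold of 25 over 20 DAP embryos (vertical) against the mean log2 MAS5 signal of both ages (horizontal) for 17621 probe sets, with dashed lines at a fold of 2. The 290 probe sets called higher (red) and 177 called lower (blue) lie at low and high signals alike, and grey points beyond the lines missed the adjusted p.

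The largest positive folds lay in probe sets with no gene name here. The first of them had signals of 415, 477 and 443 in 25 DAP embryos, against 27.9, 22.3 and 24.1 in 20 DAP embryos. It was near the lowest signals of the array at 20 DAP and well apart from them at 25 DAP, and with signals under 100 taken as 100 its log2 fold was at least 2.15. A brighter one, the next in that direction, measured 6547, 5028 and 7334 in 25 DAP embryos, against 582, 462 and 487 in 20 DAP embryos (log2 fold 3.62 ± 0.41, adjusted p = 2.7e-07). Among those that fell, the unnamed probe set with the largest fold had 69.7, 168 and 110.0 in 25 DAP embryos, against 989, 479 and 887 in 20 DAP embryos, with a wide spread at both ages and no overlap (log2 fold -2.78 ± 0.38, adjusted p = 4.6e-06).

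Antioxidant and detoxification enzymes held the largest number of calls of any list, all in one direction. Of 64 probe sets on the list, 9 were called higher in 25 DAP embryos and 0 lower, against 1.65% and 1.0% of all probe sets, although the list's median log2 fold was -0.07, next to -0.01 over all. Glutathione S-transferases, which couple glutathione to reactive compounds, gave 6 of the 9. The gene gst12 measured 4297, 4797 and 4561 in 25 DAP embryos, against 1296, 1179 and 1420.4 in 20 DAP embryos (log2 fold 1.81 ± 0.36, adjusted p = 0.00069). Its 25 DAP arrays lay 3 times above the 20 DAP arrays or more, and its mean had been 612 and 255 at 10 and 15 DAP. Signals of gst42 were 797, 848 and 709 in 25 DAP embryos, against 208, 289 and 239.9 in 20 DAP embryos (log2 fold 1.68 ± 0.25, adjusted p = 1.7e-05), again without overlap. For gst14 they were 1411, 1648 and 1477 in 25 DAP embryos, against 557, 578 and 591 in 20 DAP embryos (log2 fold 1.39 ± 0.45, adjusted p = 0.038), and this call was lost when any 1 of the 6 embryo arrays was left out, with an adjusted p of 0.08 to 0.11. It was kept in a fit on the 6 embryo arrays alone, without the spread of the other tissues. The other called members, GST38 (1.17, adjusted p = 0.0063), gst11 (1.12, adjusted p = 0.0077) and gst5 (1.06, adjusted p = 0.0036), are named because they complete the count. The remaining 29 of 35 glutathione S-transferase probe sets were not called, GST25 among them at 1454, 2109.6 and 1584 in 25 DAP embryos, against 1612, 1515 and 1822 in 20 DAP embryos, where the ages overlap.

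The catalases, which break down hydrogen peroxide, differed among themselves. The probe set of cat2 had 689.7, 745 and 834 in 25 DAP embryos, against 317, 259 and 234 in 20 DAP embryos (log2 fold 1.49 ± 0.27, adjusted p = 0.00024), and its means at 10 and 15 DAP had been 43.4 and 49.6. CAT3, a further member outside the naming rule, had 475, 647 and 553 in 25 DAP embryos, against 244, 235 and 267 in 20 DAP embryos (log2 fold 1.16 ± 0.22, adjusted p = 0.00039). By contrast cat1, which is read by 3 probe sets, was not called, and its brightest probe set had 7127, 7263 and 7123 in 25 DAP embryos, against 7141, 6899 and 6896 in 20 DAP embryos, with overlap between ages (log2 fold 0.04 ± 0.07, adjusted p = 0.81). The name aox1 covers separate gene entries for alternative oxidases, which let mitochondrial electrons bypass part of the respiratory chain. One entry was called (log2 fold 1.08 ± 0.19, adjusted p = 0.00016), and the other gene entry was not (log2 fold 0.21 ± 0.34, adjusted p = 0.77). The peroxiredoxin gene per-1, known from dormant seeds, had 15004, 15365 and 15772 in 25 DAP embryos, against 12951, 13087 and 13228 in 20 DAP embryos and was not called (log2 fold 0.23 ± 0.33, adjusted p = 0.73).

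Of 46 probe sets for heat shock proteins and chaperones, 1 was called higher and 0 lower, against 1.65% and 1.0% of all probe sets. The list median was 0.14. The called one reads hsp18c, a small heat shock protein that keeps damaged proteins soluble, with signals of 3826, 3346 and 4275 in 25 DAP embryos, against 1350.1, 879 and 791 in 20 DAP embryos (log2 fold 1.96 ± 0.25, adjusted p = 1.6e-06). Its means at 10 and 15 DAP were 1999 and 4213, so that 20 DAP was the lowest of the 4 ages. A second hsp18c probe set missed the fold threshold at log2 fold 0.86 ± 0.27, adjusted p = 0.029. All 9 probe sets of cytosolic heat shock proteins had positive folds, of 0.05 to 1.96, of which 1 was called, whereas 8654 of all 17621 probe sets had positive folds. In the endoplasmic reticulum, the lumenal Hsp70 genes bip1 and bip2 fell just short of the fold threshold. The bip1 signals were 2995, 3368 and 3037 in 25 DAP embryos, against 1505, 1657 and 1631 in 20 DAP embryos (log2 fold 0.97 ± 0.09, adjusted p = 3.6e-09), and the bip2 signals were 1635, 1822 and 1715 in 25 DAP embryos, against 939, 985 and 942 in 20 DAP embryos (log2 fold 0.85 ± 0.11, adjusted p = 2.1e-06), both with narrow spread and no overlap. Of 31 probe sets for chaperones and disulfide isomerases of this compartment, 6 had an adjusted p under 0.05 with a positive fold and 0 with a negative one, against 7.58% and 5.07% of all probe sets, and 0 passed the fold threshold. The subsets within lists were drawn after their values were seen. This holds here and for glutathione S-transferases, catalases, cytokinin, cellulose synthases, cyclins, kinesins, fermentation and glycolysis.

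**Figure D2:**
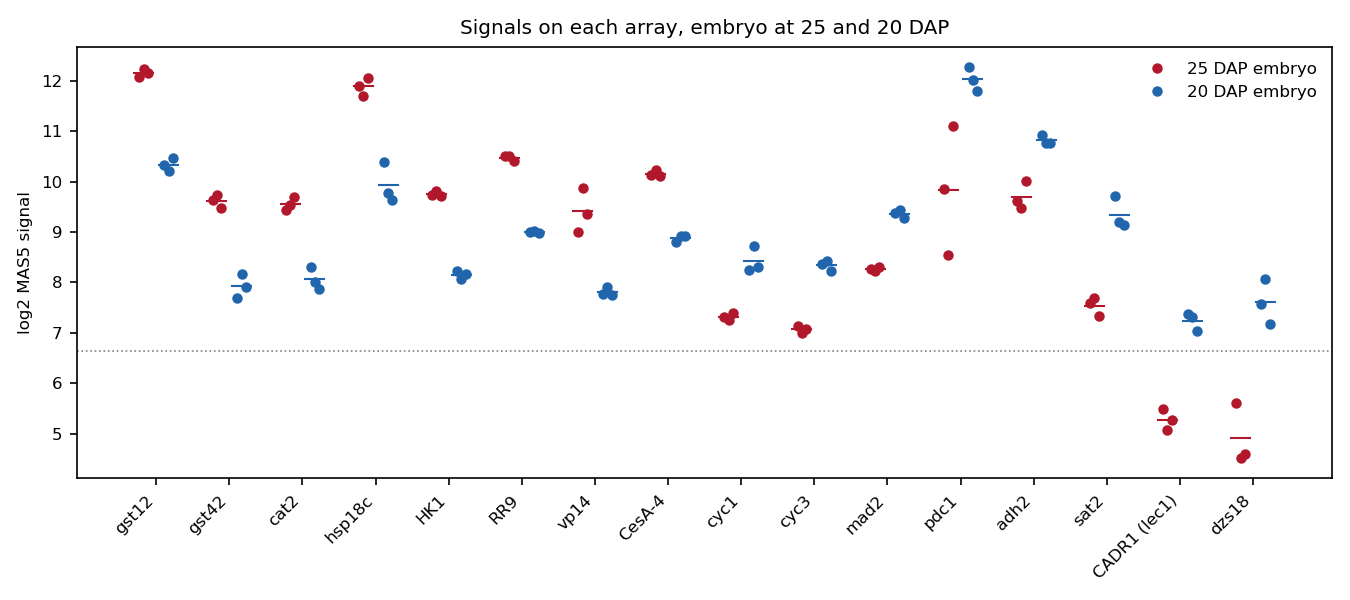
Log2 MAS5 signal (vertical) of 16 probe sets on each of the 3 arrays of 25 DAP embryo (red) and of 20 DAP embryo (blue), with bars at group means and a dotted line at a signal of 100. Within every gene shown the 3 arrays of each age do not overlap, which the rule that picked these genes required. The spread at 25 DAP is widest in pdc1, and CADR1 and dzs18 lie under a signal of 100 at 25 DAP.

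Of the hormone genes, vp14 of abscisic acid synthesis and 3 genes of cytokinin signalling were called. On the list of abscisic acid and maturation regulators, 1 of 21 probe sets was called higher and 0 lower, against 1.65% and 1.0% of all. The called one reads vp14, the 9-cis-epoxycarotenoid dioxygenase that commits carotenoids to abscisic acid. Signals of vp14 were 509, 938 and 657 in 25 DAP embryos, against 217, 241 and 215 in 20 DAP embryos (log2 fold 1.60 ± 0.36, adjusted p = 0.0027), without overlap but with a wide spread at 25 DAP, and the means at 10 and 15 DAP were 174 and 231. The transcription factor gene vp1 itself had 2947, 3563 and 3156 in 25 DAP embryos, against 3314, 3551 and 3331 in 20 DAP embryos and its ages overlapped (log2 fold -0.08 ± 0.17, adjusted p = 0.83). Of its 3 further probe sets, none was called.

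Cytokinin is perceived by histidine kinases in the membrane, and the signal passes through phosphotransfer proteins to response regulators. Of 45 probe sets for growth hormone genes, 3 were called higher and 0 lower, against 1.65% and 1.0% of all probe sets. All 3 belong to this chain. The receptor gene HK1 had 858, 905 and 842 in 25 DAP embryos, against 302, 269 and 286 in 20 DAP embryos (log2 fold 1.60 ± 0.25, adjusted p = 3.7e-05). Its 3 arrays at each age lay close together, and its means at 10 and 15 DAP were 474 and 475, above that at 20 DAP. The response regulator gene RR9 had 1454, 1458 and 1351 in 25 DAP embryos, against 510.4, 517 and 505 in 20 DAP embryos (log2 fold 1.48 ± 0.25, adjusted p = 0.00012), with arrays of each age close together. RR6, a weaker probe set, had 103, 95.5 and 104 in 25 DAP embryos, against 36.8, 39.8 and 42.4 in 20 DAP embryos (log2 fold 1.35 ± 0.36, adjusted p = 0.011), and with signals under 100 taken as 100 its bound was 0.03. It was no longer called with 32 added to each signal (log2 fold 0.89, adjusted p = 0.054). The regulator genes RR5 (log2 fold 0.98 ± 0.13, adjusted p = 4.2e-06) and crr2 (log2 fold 0.98 ± 0.23, adjusted p = 0.004) fell just under the fold threshold. In all, 14 of 17 probe sets of cytokinin receptors, phosphotransfer proteins and response regulators had positive folds, 8 of them at an adjusted p under 0.05, with a median of 0.56, and 3 were called. Over all, 8654 of 17621 probe sets had positive folds, and 7.58% of the 17621 had one at an adjusted p under 0.05. The cytokinin oxidase gene cko1, whose product degrades the hormone, had 200.4, 219 and 208 in 25 DAP embryos, against 347, 347 and 336 in 20 DAP embryos (log2 fold -0.72 ± 0.21, adjusted p = 0.02), which is under the fold threshold. The family as a set did not lean that way. Of its 4 probe sets, 2 had positive and 2 negative folds, up to 0.755, with a median of 0.12, and 0 were called.

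Among 38 probe sets for cell wall genes, 2 were called higher and 0 lower, against 1.65% and 1.0% of all probe sets. Both called ones read CesA-4, a catalytic subunit of cellulose synthase. The first had 1123, 1203 and 1099.6 in 25 DAP embryos, against 446, 484 and 482 in 20 DAP embryos (log2 fold 1.28 ± 0.21, adjusted p = 7.5e-05) and the second had a log2 fold of 1.09, adjusted p = 0.0006. The cellulose synthase genes CesA-9 (0.84, adjusted p = 0.0027), cesa2 (0.77, adjusted p = 0.027) and CesA-1 (0.70, adjusted p = 0.031) had an adjusted p under 0.05 below the fold threshold. The 13 probe sets of the family had a median of 0.58, and those with a signal of at least 100 at one age had 0.70. The gene 4CL, for 4-coumarate:CoA ligase at the entry to lignin and flavonoid precursors, was the only one called among 16 probe sets of phenylpropanoid and anthocyanin genes. It had 366, 495 and 381 in 25 DAP embryos, against 133, 103 and 91.4 in 20 DAP embryos (log2 fold 1.93 ± 0.22, adjusted p = 3.9e-07), again without overlap.

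Further genes called higher come from several roles. The MYB transcription factor gene MYB-IF35 had 292, 442 and 348 in 25 DAP embryos, against 102, 103 and 98.4 in 20 DAP embryos (log2 fold 1.81 ± 0.27, adjusted p = 2.3e-05). Initiator-binding protein gene ibp2 had 249, 314 and 221 in 25 DAP embryos, against 83.0, 70.9 and 67.6 in 20 DAP embryos (log2 fold 1.81 ± 0.21, adjusted p = 5.7e-07), and with signals under 100 taken as 100 its log2 fold was at least 1.37. The spermidine synthase gene spds2, for a step of polyamine synthesis, had 1309.9, 1265 and 1264 in 25 DAP embryos, against 499, 490.1 and 496 in 20 DAP embryos (log2 fold 1.37 ± 0.23, adjusted p = 0.00012), and the spread within each age was small beside the difference in all 3 genes. Also called were maf1 (1.43, adjusted p = 1.7e-05), the homeobox gene ocl3 of the outer cell layer (1.03, adjusted p = 0.014), the kinesin gene krp1 (1.04, adjusted p = 2.8e-06) and the translation initiation factor gene eIF-5 (1.06, adjusted p = 0.00018). The gene sip1 was called on one probe set (log2 fold 1.68 ± 0.42, adjusted p = 0.0073), and its second missed the fold threshold at 0.61, adjusted p = 0.028. With arrays centred on their medians, krp1, ocl3 and eIF-5 fell just under the fold threshold at 0.95, 0.94 and 0.97.

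**Figure D3:**
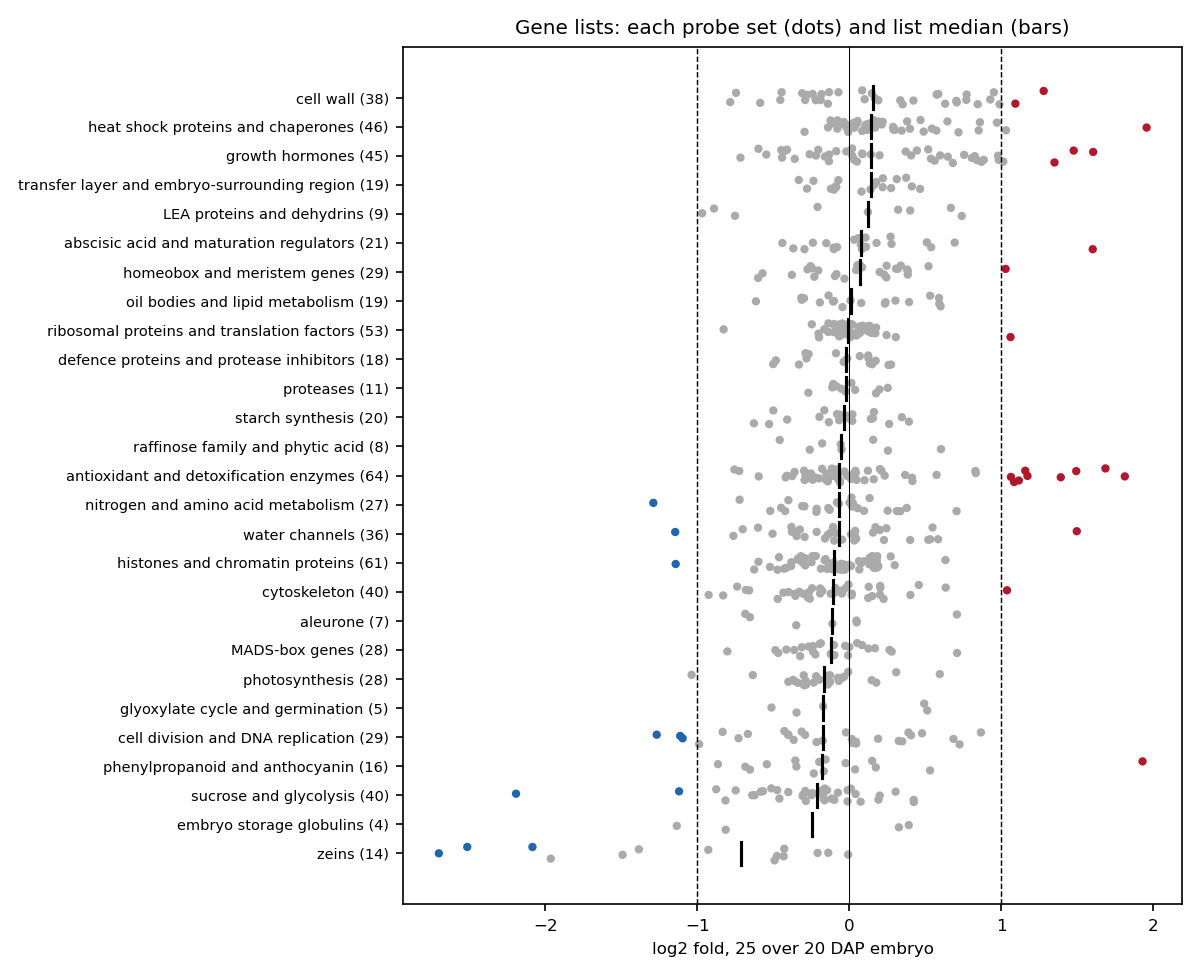
Log2 fold of 25 over 20 DAP embryos (horizontal) for every probe set (dots) of 27 gene lists, with the number of probe sets in brackets, list medians (black bars), probe sets called higher (red) or lower (blue) and dashed lines at a fold of 2. Antioxidant and detoxification enzymes hold 9 red dots beside a median of -0.07, and zeins have the lowest median, -0.71.

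Several genes of mitosis were lower in 25 DAP embryos. Of 29 probe sets for cell division and DNA replication, 3 were called lower and 0 higher, against 1.0% and 1.65% of all probe sets. The list as a whole was mixed, with a median of -0.18. It held 13 positive and 16 negative folds, of which 2 and 7 had an adjusted p under 0.05. B-type cyclins carry cells into mitosis. The probe set of cyc3 had 141, 129 and 135 in 25 DAP embryos, against 332, 345 and 299 in 20 DAP embryos (log2 fold -1.27 ± 0.23, adjusted p = 0.00025) and that of cyc1 had 158, 153 and 168 in 25 DAP embryos, against 304, 424 and 319 in 20 DAP embryos (log2 fold -1.11 ± 0.22, adjusted p = 0.00092). Neither gene had overlapping ages. The cyc1 call was lost with 32 added to each signal (log2 fold -0.98) and without 20 DAP replicate 2 (-0.96), each time just under the fold threshold. The third B-type cyclin, cyc2, had 187, 175 and 174 in 25 DAP embryos, against 350.4, 409 and 310.3 in 20 DAP embryos, and its fold lay just under the threshold (log2 fold -0.99 ± 0.17, adjusted p = 0.0001), so that it was called with arrays centred on their medians (-1.08). The spindle checkpoint gene mad2 had 308, 299.9 and 317 in 25 DAP embryos, against 668, 695 and 617 in 20 DAP embryos (log2 fold -1.10 ± 0.20, adjusted p = 0.00028), with little spread within either age. In bulk tissue, fewer dividing cells and less RNA per cell cannot be told apart. The means of all 4 genes were lower at each later age. For mad2 they were 2319, 1245, 660.2 and 309 at 10, 15, 20 and 25 DAP. The D-type cyclin gene cycD2, which acts before DNA replication, lay in the other direction at 5109, 5064 and 5116 in 25 DAP embryos, against 2764, 2786 and 2842 in 20 DAP embryos (log2 fold 0.87 ± 0.22, adjusted p = 0.0083), under the fold threshold. Genes of DNA replication such as PCNA and MCM were not called.

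Kinesins, the motors that move along microtubules, split. The genes krp13, KIN8, krp4 and krp11 had log2 folds of -0.93, -0.83, -0.74 and -0.66, each at an adjusted p under 0.05 but under the fold threshold, whereas krp1 was called higher. Of 61 probe sets for histones and chromatin proteins, 1 was called lower and 0 higher, near the 1.0% and 1.65% of all probe sets. The called one reads met2a, a DNA methyltransferase gene, with 97.8, 103 and 102 in 25 DAP embryos, against 206, 244 and 219 in 20 DAP embryos (log2 fold -1.14 ± 0.26, adjusted p = 0.0027). Its means at 10 and 15 DAP had been 905 and 321.

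The gene CADR1, listed by RefSeq also as lec1, encodes a subunit of the CCAAT-binding factor known from Arabidopsis as a regulator of embryo identity. It had 45.01, 33.77 and 38.56 in 25 DAP embryos, against 166.5, 159.1 and 131.0 in 20 DAP embryos (log2 fold -1.96 ± 0.31, adjusted p = 5.7e-05). The 3 arrays at 25 DAP lay under a signal of 100 and those at 20 DAP above it, and with signals under 100 taken as 100 the log2 fold was -0.60 or lower. Its means of 5329.8 and 1001 at 10 and 15 DAP place 25 DAP as the last point of a decline. The homeobox gene kn1, which marks the shoot meristem, had 681, 771 and 734 in 25 DAP embryos, against 1067, 1147 and 1032 in 20 DAP embryos and was not called (log2 fold -0.57 ± 0.47, adjusted p = 0.49).

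**Figure D4:**
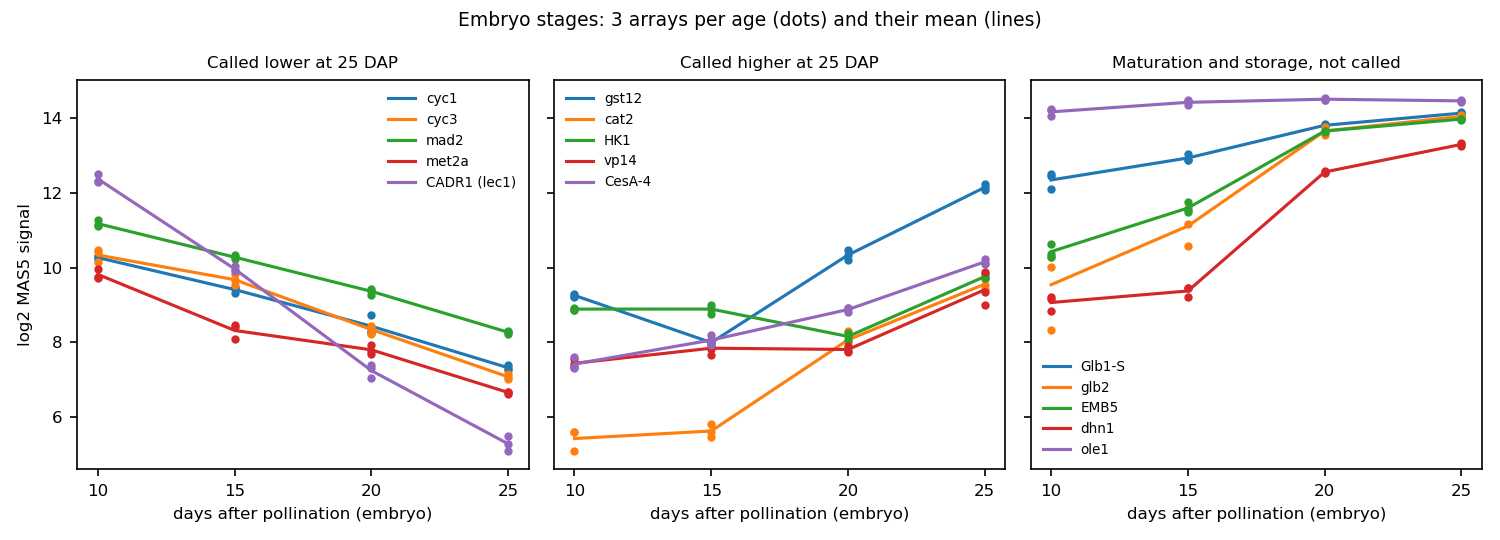
Log2 MAS5 signal (vertical) in embryos at 10, 15, 20 and 25 DAP (horizontal), with 3 arrays per age as dots and their means as lines, for genes called lower at 25 against 20 DAP (left), called higher (middle) and for maturation and storage genes that were not called (right). The mean of CADR1 goes down from 5329.8 at 10 DAP to 39.1 at 25 DAP, whereas dhn1 has its steepest step between 15 and 20 DAP.

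Genes of sucrose breakdown and glycolysis leaned downwards, with a list median of -0.21. Of 40 probe sets, 2 were called lower and 0 higher, against 1.0% and 1.65% of all probe sets. Both called genes act in ethanol fermentation, which regenerates NAD when oxygen is short. Pyruvate decarboxylase gene pdc1 had 931, 375 and 2209 in 25 DAP embryos, against 4984, 4142 and 3568 in 20 DAP embryos (log2 fold -2.19 ± 0.66, adjusted p = 0.024). Its 25 DAP arrays spread widely. The call was lost in 5 of the 6 fits without 1 embryo array, at an adjusted p of 0.054 to 0.19, and held only without 25 DAP replicate 3. Leaving out 25 DAP replicate 2 moved the log2 fold to -1.55. The alcohol dehydrogenase gene adh2 had 789, 713 and 1029 in 25 DAP embryos, against 1944, 1753 and 1743 in 20 DAP embryos (log2 fold -1.12 ± 0.29, adjusted p = 0.0093) and narrowly lost its call without 25 DAP replicate 2 (adjusted p = 0.052). Its relative adh1 differed by less than the fold threshold, at 14060.0, 14143 and 14632 in 25 DAP embryos, against 16896, 16830.0 and 17339 in 20 DAP embryos (log2 fold -0.25 ± 0.06, adjusted p = 0.0077). Over the whole list, 10 probe sets had an adjusted p under 0.05 with a negative fold and 0 with a positive one, against 5.07% and 7.58% of all. These include glyceraldehyde-3-phosphate dehydrogenase genes gpc4 (log2 fold -0.58 ± 0.11, adjusted p = 0.00049) and gpn1 (log2 fold -0.81 ± 0.19, adjusted p = 0.0042). The sucrose synthase gene sus1 had 7752, 8378 and 7815 in 25 DAP embryos, against 11305, 11260.0 and 10375 in 20 DAP embryos and was not called (log2 fold -0.46 ± 0.26, adjusted p = 0.28).

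The sulfur genes sat2 and sir, which are on none of the lists, were called lower. Serine acetyltransferase gene sat2, for the precursor of cysteine, had 194, 206 and 161 in 25 DAP embryos, against 835, 589.5 and 561 in 20 DAP embryos (log2 fold -1.81 ± 0.39, adjusted p = 0.0018). The sulfite reductase gene sir was called on a probe set shared between related sequences (log2 fold -1.20 ± 0.41, adjusted p = 0.049), had log2 fold -0.66 ± 0.22, adjusted p = 0.04 on another and log2 fold 0.36 ± 0.11, adjusted p = 0.021 on the third, so its direction is not settled by these arrays. Among 27 probe sets for nitrogen and amino acid metabolism, only GLN6 of the glutamine synthetase family was called, at 90.2, 124 and 96.8 in 25 DAP embryos, against 265, 289 and 206 in 20 DAP embryos (log2 fold -1.29 ± 0.26, adjusted p = 0.00097). The aquaporin gene pip2-5, for a water channel of the plasma membrane, had 138, 130.1 and 164 in 25 DAP embryos, against 293, 384 and 283 in 20 DAP embryos (log2 fold -1.15 ± 0.31, adjusted p = 0.012). This call was lost without 20 DAP replicate 2 (adjusted p = 0.067) or 25 DAP replicate 2 (0.052) and with 32 added to each signal (-0.99). Of 36 water channel probe sets it was the only one called lower, and the 1 called higher, TIP1-2, stayed under a signal of 100 at both ages. Over all probe sets, 1.0% were called lower and 1.65% higher. The single calls on the nitrogen and water channel lists are not read as results about either list.

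Other genes called lower were read at very different strengths. Calmodulin, the calcium sensor, had 195, 176 and 196 in 25 DAP embryos, against 1008, 850.4 and 869 in 20 DAP embryos on one probe set (log2 fold -2.26 ± 0.26, adjusted p = 3.9e-07) and a log2 fold of -0.50 on the other, which was not called. The gene ERF1 had 1769, 1225 and 2597 in 25 DAP embryos, against 5582, 3869.9 and 4155 in 20 DAP embryos (log2 fold -1.33 ± 0.36, adjusted p = 0.012), and this call was lost without 20 DAP replicate 1 or 25 DAP replicate 2. The genes TPS9 (-1.52, adjusted p = 0.048) and MZm3-3 (-1.81, adjusted p = 0.0042) and the hemoglobin gene GLB1, which is not the globulin gene (-1.19, adjusted p = 0.00024), were also called. With signals under 100 taken as 100, the log2 fold was -0.89 or lower for MZm3-3 and -0.30 or lower for GLB1. TPS9 and sir were no longer called when any 1 of the 6 embryo arrays was left out, with the replicate number as a block (adjusted p = 0.061 and 0.063) or without the intensity trend (0.052 and 0.054). The gene IIG1 is read by 6 probe sets that disagreed, since 2 were called lower and the others had log2 folds of -0.62 to 0.38. Of the 2, one lost its call without any 1 of the 6 embryo arrays (adjusted p = 0.056 to 0.065), and the other averaged 4.96 in 25 DAP and 43.5 in 20 DAP embryos, so no fold holds for it with signals under 100 taken as 100.

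Of the storage and maturation lists, 0 of 9 LEA and dehydrin probe sets, 0 of 4 globulin probe sets and 0 of 19 probe sets of oil bodies and lipid metabolism were called in either direction. With 2.65% of all probe sets called, lists of this size give few calls or none, so these counts are not set apart from the background. The globulin gene Glb1-S had 17730.0, 18269 and 18097 in 25 DAP embryos, against 14182, 14111 and 14865 in 20 DAP embryos (log2 fold 0.33 ± 0.35, adjusted p = 0.63). The globulin gene glb2 had 16509, 17035 and 17409 in 25 DAP embryos, against 12946, 12092 and 13870.0 in 20 DAP embryos (log2 fold 0.39 ± 0.28, adjusted p = 0.41). The other members of the globulin list ran the other way and were not called. The globulin gene glb3 had 193, 175 and 176 in 25 DAP embryos, against 225, 409.7 and 351 in 20 DAP embryos (log2 fold -0.81 ± 0.43, adjusted p = 0.24). The legumin gene leg1 had 71.4, 60.7 and 61.6 in 25 DAP embryos, against 118, 227 and 105 in 20 DAP embryos (log2 fold -1.14 ± 0.47, adjusted p = 0.11), and with signals under 100 taken as 100 its log2 fold was -0.50 or lower. The list median was -0.24, and 1 of the 4 was called lower in a fit on the 6 embryo arrays alone. Oleosin gene ole1, for a coat protein of oil bodies, had 22271, 22782 and 22858 in 25 DAP embryos, against 23168, 22883 and 24018 in 20 DAP embryos (log2 fold -0.04 ± 0.41, adjusted p = 0.97). The LEA protein gene EMB5 had 16283, 16287 and 15856 in 25 DAP embryos, against 12748, 13024 and 12993 in 20 DAP embryos (log2 fold 0.32 ± 0.18, adjusted p = 0.27). In Glb1-S, glb2 and EMB5 all 3 arrays at 25 DAP were above all 3 at 20 DAP, which also held for 52.9% of all probe sets in one direction or the other, and the adjusted p was missed in each. The dehydrin gene dhn1, also known as rab17, had 9784, 10413 and 10097 in 25 DAP embryos, against 6054, 5934 and 6153 in 20 DAP embryos and missed both the fold threshold and the adjusted p (log2 fold 0.74 ± 0.59, adjusted p = 0.48). The 3 embryo arrays of each age lay close together in dhn1, as they did in Glb1-S and EMB5, while the SE of each gene draws on the spread within all tissues. A second dehydrin gene, dhn2, ran the other way. Its 3 probe sets had log2 folds of -0.97, -0.89 and -0.75, each at an adjusted p under 0.01 and under the fold threshold, and 1 LEA and dehydrin probe set was called lower with quantile normalization or with arrays centred on their medians.

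The zeins, storage proteins of the endosperm, had the lowest list median at -0.71, and all 14 probe sets had negative folds. Of these, 3 were called lower and 0 higher, against 1.0% and 1.65% of all probe sets. All 3 called ones read the delta zein gene dzs18. Its first probe set had 48.9, 22.7 and 24.2 in 25 DAP embryos, against 190.0, 267 and 145 in 20 DAP embryos (log2 fold -2.70 ± 0.75, adjusted p = 0.014), so that all 25 DAP arrays were under a signal of 100, and the log2 fold with signals under 100 taken as 100 was -0.96 or lower. The mean in 20 DAP embryos was 0.89% of that in endosperm of the same age. All 3 calls were lost without 20 DAP replicate 2 (adjusted p = 0.062 to 0.11), without 25 DAP replicate 2 (0.061 to 0.093) or without 25 DAP replicate 3 (0.057 to 0.10). With 32 added to each signal no zein probe set was called. An unnamed probe set with a mean signal of 20178 in 25 DAP endosperm, the next in size among those that fell, had 250.3, 70.2 and 61.7 in 25 DAP embryos, against 722, 689.6 and 611 in 20 DAP embryos, and its call was lost in 5 of the 6 fits without 1 embryo array (adjusted p = 0.083 to 0.15). The summed zein signal was 3285 to 3623 in 25 DAP embryos and 4469 to 5453 in 20 DAP embryos. Sums over the 19 transfer layer and embryo-surrounding region probe sets (3868 to 4918 at 25 DAP, 4660 to 4906 at 20 DAP) and over 7 aleurone probe sets (8339 to 8808 at 25 DAP, 8787 to 9358 at 20 DAP) gave 0 calls in either list. The endosperm regulator gene o2 was at or near a signal of 100 on its brighter probe set, with 105, 94.2 and 102 in 25 DAP embryos, against 113, 118 and 112 in 20 DAP embryos. The part of endosperm RNA in these results was not tested.

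The 18 genes of the 9 pairs that the study cloned from this microarray data set (designated MA-n) were chosen there for high signals in embryos of these ages, not for a difference between them. Of the 18, 1 was called, higher in 25 DAP embryos, against 1.65% of all probe sets. It belongs to the pair MA-14. In the study's reporter assay only some of the 9 regions were active in both directions, and its text does not say whether that of MA-14 was. The genes of MA-14 lie in opposite directions on either side of a shared intergenic region. The cloning primers of that region are shown because the folds of its genes had opposite signs, with the XbaI and NcoI restriction sites in capitals:
MA-14 forward: TCTAGAcagcggcgtgttcgcg
MA-14 reverse: cCCATGGgattagggtttcttag
GRMZM2G366392 had 3612, 3866 and 3599 in 25 DAP embryos, against 1696, 1654 and 1643 in 20 DAP embryos (log2 fold 1.15 ± 0.18, adjusted p = 4.4e-05). Its partner GRMZM2G067417 had 1671, 1813 and 1808 in 25 DAP embryos, against 2764, 2406 and 2482 in 20 DAP embryos (log2 fold -0.53 ± 0.09, adjusted p = 9.5e-05), which passed the adjusted p in the other direction but not the fold threshold. Neither gene had overlapping ages. Across 10, 15, 20 and 25 DAP the means were 650.5, 689, 1664 and 3692 for GRMZM2G366392, and 4232, 3153, 2551 and 1764 for GRMZM2G067417. The other 16 genes had log2 folds of -0.58 to 0.10, each at an adjusted p above 0.05. The largest of these was GRMZM2G117786 of MA-13, with 3439.5, 2989.9 and 3271 in 25 DAP embryos, against 4777, 5058 and 4616 in 20 DAP embryos (log2 fold -0.58 ± 0.25, adjusted p = 0.14).

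More probe sets were called in the endosperm over the same 5 days, with 697 higher and 79 lower in 25 against 20 DAP endosperm (3.96% and 0.448%). The embryo and endosperm comparisons share no arrays. Of the probe sets called higher, 61 were common to both, which is 21.03% of the 290 of the embryo and 8.75% of the 697 of the endosperm. Called lower in both were 2, which is 1.13% of the 177 called lower in the embryo, against 0.448% of all probe sets called lower in endosperm. In opposite directions, 2 were higher in embryo and lower in endosperm, and 8 lower in embryo and higher in endosperm. Beside the endosperm shares of 3.96% and 0.448% over all probe sets, counts this small are not read as a result. The difference of the changes, embryo minus endosperm, was tested in the same fit and was called above 0 for 443 probe sets (2.51%) and below 0 for 658 (3.73%). With arrays centred on the hybridization controls, 246 were above 0. The 443 and 658 include 128 of the 290 called higher and 100 of the 177 called lower in the embryo. GRMZM2G366392, gst42 and spds2 were among those higher in both tissues, with endosperm log2 folds of 1.504 (adjusted p = 2.1e-07), 2.10 (adjusted p = 1.4e-07) and 2.05 (adjusted p = 7.0e-08).

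Differences were ranked among named genes with a mean signal of at least 100 in one of the 4 embryo and endosperm groups. This limit was added to the naming rule, and it leaves out called differences of 1.78 for kch4 and -3.61 for one probe set of IIG1. Above it, the genes with the largest positive difference were MYB-IF35, RR9, gst12, ibp2 and hsp18c. In endosperm, MYB-IF35 averaged 408 at 25 DAP and 731 at 20 DAP, so the difference of changes was 2.66 ± 0.38 (adjusted p = 1.4e-05). For RR9 it was 1.87 ± 0.35 (adjusted p = 0.00041), as endosperm averaged 266 at 25 DAP and 349 at 20 DAP. For gst12 it was 1.79 ± 0.50 (adjusted p = 0.014), with 187 in 25 DAP and 183 in 20 DAP endosperm, and it was no longer called with arrays centred on the hybridization controls (1.78, adjusted p = 0.057). These genes rose in the embryo and were not called higher in endosperm.

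The genes with the largest negative difference by the same limit, plt2, GST25, Glb1-S, prp2 and dhn1, rose in endosperm and were not called in the embryo. The lipid transfer protein gene plt2 had 10041, 9591 and 9719.8 in 25 DAP embryos, against 4703, 4877 and 5101 in 20 DAP embryos (log2 fold 1.00 ± 0.60, adjusted p = 0.32), while its endosperm log2 fold was 4.61 (adjusted p = 9.7e-07). In a fit on the 6 embryo arrays alone, plt2 was called higher in the embryo as well (adjusted p = 1.5e-05). For dhn1 the endosperm averaged 6429 at 25 DAP and 515 at 20 DAP, and the difference of changes was -3.10 ± 0.84 (adjusted p = 0.011). For Glb1-S the difference was -3.23 ± 0.50 (adjusted p = 3.5e-05), for GST25 it was -3.56 ± 0.69 (adjusted p = 0.00053) and for prp2 it was -3.17 ± 0.81 (adjusted p = 0.0068). The 9 LEA and dehydrin probe sets, none of which was called in the embryo, gave 8 called higher in endosperm, against 3.96% of all probe sets.

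**Figure D5:**
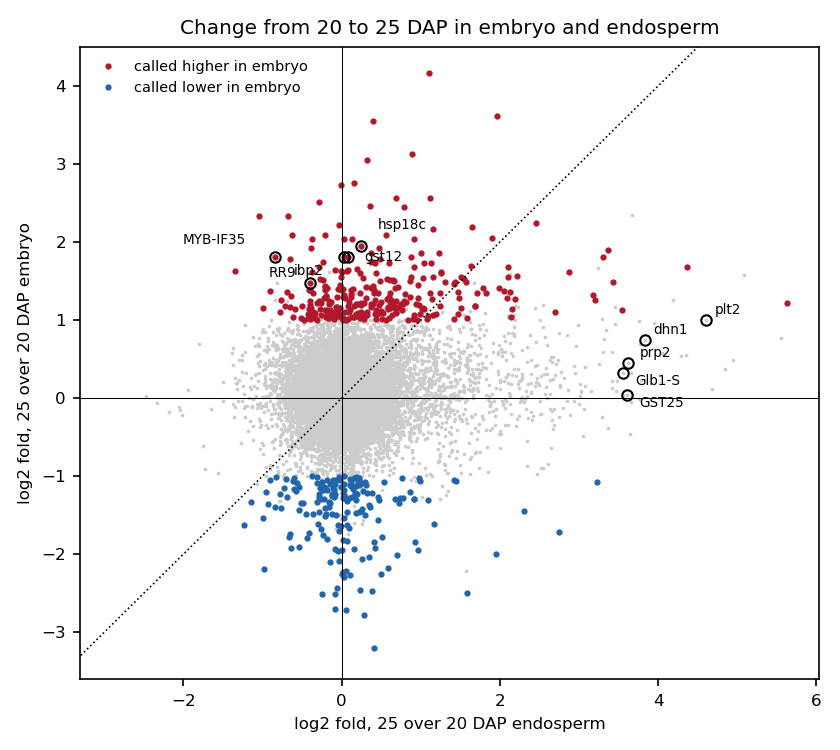
Log2 fold of 25 over 20 DAP in embryo (vertical) against that in endosperm (horizontal) for all probe sets, with those called in embryo in red (higher) and blue (lower), the 10 genes with the largest called differences above the signal limit circled and a dotted line where both changes are equal. Of the circled genes, 5 lie high on the left, and plt2, dhn1, prp2, Glb1-S and GST25 lie far to the right near an embryo fold of 0 to 1.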

How the data were processed

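Total RNA was extracted with Trizol, labelled with a 3′ IVT kit and hybridized to Affymetrix maize arrays. The deposited values are MAS5 signals (intensity, linear scale) computed by the authors for each array. The MAS5 version, scaling target and genome build are not given in the sources used here. Arrays have no read depth, and the 3 replicates per age limit the precision. No scaling was added before the log2 step. One mean per tissue (14 tissues, 42 arrays, 28 residual degrees of freedom) was fitted with limma 3.58.1 under R 4.3.3, using eBayes with trend. Benjamini-Hochberg adjustment covered 17621 probe sets, leaving out 113 controls. Calls need a fold of 2 or more with an adjusted p below 0.05. Where a mean lies under a signal of 100, a fold with signals under 100 taken as 100 is given as a bound without a test for the genes described by their signals. The fit was tested on simulated data.

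Gene names come from GEO's platform annotation and RefSeq (1452 probe sets with 1 gene, 1 with several, 1377 matched to RefSeq) and from the study's worksheet (524 more). Of these 1976, 1303 have a symbol and not only a locus identifier. The comparison and the 27 gene lists were chosen with earlier results of these data known. Named are, per direction, the 15 genes that changed most (called, without overlap, mean of at least 100 at the higher age), the 3 largest per list and direction, 2 unnamed probe sets per direction, the 18 candidate genes, the 5 largest differences from endosperm per direction (mean of at least 100 in one group, a limit added later), and 23 fixed genes, of which 5 are not on the table. Not all are printed. Alternatives were other scalings, a filter (3 arrays at 100 or more), a pseudocount of 32, no trend, fewer arrays in the fit, no fold threshold, a replicate block and each array left out. Primers were copied from the study's worksheet.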

Additional observations from a re-analysis of the deposited data

Results flagged for a closer look

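The change from 20 to 25 DAP differed between embryo and endosperm by the test of the difference itself. It was above 0 for 443 probe sets and below 0 for 658, 2.51% and 3.73% of those tested. By gene, the embryo change minus the endosperm change was 2.66 for MYB-IF35, 1.87 for RR9, 1.79 for gst12, 1.73 for ibp2 and 1.71 for hsp18c. It was -3.61 for plt2, -3.56 for GST25, -3.23 for Glb1-S, -3.17 for prp2 and -3.10 for dhn1. With arrays centred on the hybridization controls the count above 0 was 246 and gst12 was no longer called. Each of the 10 was singled out because its difference passed an adjusted p of 0.05 in the limma fit. The second hsp18c probe set had a difference of 0.12 (adjusted p = 0.90), so the probe sets of that gene disagree. Groups of 3 arrays are too small for a search for single outlying arrays.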

How the results depend on the processing

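Of the 290 probe sets called higher and 177 called lower, 165 and 88 were called under every alternative but the one without a fold threshold. The counts stayed within 1.5 times of these under each such alternative, at 221 to 337 higher and 135 to 237 lower, and at 234 to 291 and 126 to 162 with 1 embryo array left out. Without a fold threshold the counts were 1335 higher and 893 lower, and for the difference from endosperm 1177 above 0 and 1323 below 0. Centring on the hybridization controls gave 246 above 0 for that difference, in place of 443. With 1 of 12 arrays left out it gave 336 to 472 above 0 and 513 to 719 below 0. No paired design is stated. With a replicate block the embryo counts were 283 and 171 and those of the difference 415 and 624. Deviations of same-numbered arrays from their group means correlated at -0.13, -0.47 and 0.17, so the numbers were not taken as pairs. No named result reversed its direction. With a pseudocount of 32, 11 of 87 named probe sets lost their call, and 8 did with the hybridization controls, among them met2a (adjusted p = 0.093). In a fit on the 6 embryo arrays alone, 0 of the 87 lost a call. The 87 include candidate and fixed genes that were not called in the main fit and so had no call to lose. The lost calls are therefore a larger share of the named calls than of the 87. The replicate block ended the calls of TPS9 and sir and of no other named gene. Counts on the zein list were 0 to 6 lower, on sucrose and glycolysis 0 to 3 lower (0 without 25 DAP replicate 2) and on antioxidant and detoxification enzymes 7 to 9 higher. Signal over background limits the values under 100, which hold 61 of the 290 at 20 DAP and 29 of the 177 at 25 DAP. Causes of these shifts were not tested.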
